A study of Homo sapiens with 8 samples.

Results

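The aminoacyl-tRNA synthetase genes were followed through the RIP-chip measurement of A431 cells. Members were the genes whose symbol is that of a synthetase (the letter of the amino acid followed by ARS, or EPRS1, FARSA and FARSB), together with PSTK and SEPSECS of the selenocysteine route and AIMP1, AIMP2 and EEF1E1, the scaffold proteins of the multisynthetase complex. Of 40 such symbols followed here, 39 had a probe on the array, since FARSB was not matched by its accession. A probe had to be well above background on the 4 input arrays, and 38 of the 39 genes passed, among 13664 genes that passed in all. MARS2, the mitochondrial methionine enzyme, did not pass, and its probe was not well above background on any array. The 38 genes that passed were 16 cytosolic synthetases, 15 mitochondrial synthetases, 2 synthetases that serve both compartments (GARS1 and KARS1), 3 scaffold proteins and 2 genes of the selenocysteine route.

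A431 is a human cutaneous squamous cell carcinoma line. The cells were transfected with the negative control miR-NC or with miR-634, each at 10 nM, and were lysed 24 h later, and RNA bound to AGO2, the Argonaute protein that carries microRNAs, was taken with an anti-AGO2 antibody. This RIP RNA and the input RNA were labeled with Cy3 and hybridized to Agilent microarrays, with 2 arrays in each of 4 groups, the RIP and the input of miR-NC cells and the RIP and the input of miR-634 cells. The study's text calls the input total RNA, whereas the sample labels name a normal rabbit IgG antibody for these arrays, and they are called input here. Nothing states whether the duplicates came from separate transfections, so the p-values measure the spread between these arrays, which may be technical. All members come from a single line, and a level here is that of a cell population, in which fewer cells holding a transcript and less of it per cell cannot be told apart.

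Each synthetase joins an amino acid to its own tRNA, and the charged tRNA then delivers the amino acid to the ribosome. Human cells keep separate sets of these enzymes, encoded in the nucleus, for translation in the cytosol and in mitochondria. Several cytosolic synthetases are held together with AIMP1, AIMP2 and EEF1E1 in a large complex. A microRNA guides AGO2 to transcripts by pairing mainly through its seed, the stretch near its 5′ end, so the RIP level of a transcript relative to its input level describes how much of it was recovered with AGO2.

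The microRNA that separates the groups is shown here in RefSeq's mature form (GRCh38.p14, chr17:66787132-66787153, + strand), written 5′ to 3′ with the seed, bases 2 to 8, in capitals.
hsa-miR-634: aACCAGCAccccaacuuuggac
The DNA letters that would pair with this seed are TGCTGGT. They were not looked for in the members' transcripts, because no transcript sequences were used here. Nothing below separates transcripts that miR-634 pairs with from others.

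Levels are log2 intensities relative to the 75th percentile of an array, taken over probes well above background on each of the 8 arrays. They serve to compare arrays within a gene, not genes with each other. Enrichment is the RIP level minus the input level, and its change is the gain or loss of enrichment in miR-634 cells relative to miR-NC cells. Tests are limma's moderated test in a fit of the 4 groups, with p-values adjusted by Benjamini-Hochberg across the 13664 genes, and a gene was called when the adjusted p was under 0.05. Errors after ± are limma's standard errors, with n = 2 arrays in each group. The median SD of a member's level between the arrays of a group was 0.0343. XIAP, the study's positive control for miR-634 in the RIP, had a change of enrichment of 0.45 ± 0.07 (adjusted p = 0.0021), or 1.37-fold. With its own processing, the study reports a larger fold for XIAP and uses that fold as its cutoff. The choice of scale matters for signs. Between 33.6% and 40.0% of the spots on the RIP arrays were well above background, against 45.6% to 45.8% on the input arrays. The change of enrichment of the median gene was -0.18 as scaled here and 0.93 when the arrays were scaled on 8 spike-in control probes. Its input change was -0.01 and -0.25 on the same scales. The members' median change, the largest rise and the smallest falls are therefore also given relative to the median gene. All 9 squamous epithelial markers looked for, including KRT5, KRT14 and TP63, were well above background on the input arrays. Of the markers of other cell types, 1 of 5 fibroblast genes (LUM), 1 of 4 leukocyte genes (CD14) and 2 of 4 endothelial genes (VWF and CDH5) were too.

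In miR-NC cells, more synthetase transcripts were lower than higher in the AGO2-RIP relative to the input. Of the 38 members, 24 were lower (63.2% of them, against 43.4% of all genes tested) and 9 were higher (23.7%, against 27.2%). Apart from spike-in scaling, the count of lower members ran from 16, without the miR-NC input array of replicate 2, to 24. The median enrichment of the members was -0.25, against -0.21 over all genes tested. Among the mitochondrial enzymes 11 of 15 were lower and 3 were higher, with a median of -0.37, whereas among the cytosolic enzymes 9 of 16 were lower and 4 were higher, with a median of -0.16. When the arrays were scaled on the spike-in probes, which puts the median gene at -2.79, 0 members were called higher, also at an unadjusted p under 0.05, and 36 were called lower.

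The 3 highest enrichments in miR-NC cells belonged to GARS1, RARS1 and PARS2. RARS1, the arginine enzyme of the cytosol and a part of the multisynthetase complex, was at 2.76 and 2.73 in the miR-NC input, 4.91 and 4.99 in the miR-NC RIP, 2.59 and 2.66 in the miR-634 input and 5.005 and 4.96 in the miR-634 RIP. Its RIP arrays were far above its input arrays in both kinds of cells, with an enrichment of 2.20 ± 0.05 (adjusted p = 4.33e-06) in miR-NC cells and 2.35 ± 0.05 (adjusted p = 1.41e-06) in miR-634 cells, and its change, 0.15 ± 0.07 (adjusted p = 0.13), was not called. PARS2, which charges proline in mitochondria, was at -2.99 and -3.03 in the miR-NC input, -1.28 and -1.10 in the miR-NC RIP, -2.997 and -3.01 in the miR-634 input and -2.08 and -2.03 in the miR-634 RIP. Its RIP level was above its input level in both kinds of cells, and the gap was narrower in miR-634 cells, with enrichments of 1.82 ± 0.07 and 0.95 ± 0.07. GARS1 is described with the falls. CARS2, the mitochondrial cysteine enzyme, was also higher in the RIP in both kinds of cells, at 0.52 ± 0.07 and 0.50 ± 0.07, as were AARS1, GARS1 and MARS1.

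The 3 lowest enrichments were those of AIMP1, EEF1E1 and EPRS1. AIMP1, a scaffold protein whose fragments also act as a cytokine, was at 1.27 and 1.29 in the miR-NC input, -0.13 and -0.17 in the miR-NC RIP, 1.32 and 1.28 in the miR-634 input and -0.56 and -0.60 in the miR-634 RIP. Every RIP array lay below every input array, with an enrichment of -1.43 ± 0.04 (adjusted p = 8.2e-06) in miR-NC cells and -1.88 ± 0.04 (adjusted p = 1.56e-06) in miR-634 cells. EPRS1, which charges glutamate and proline in the cytosol and belongs to the multisynthetase complex, was at 2.51 and 2.55 in the miR-NC input, 1.51 and 1.51 in the miR-NC RIP, 2.47 and 2.42 in the miR-634 input and 1.04 and 1.43 in the miR-634 RIP. Its enrichment was -1.02 ± 0.13 and -1.21 ± 0.13 in the miR-NC and miR-634 cells, and the change was -0.19 ± 0.18 (adjusted p = 0.411). EEF1E1 is described with the rises. In all, 13 of the 38 members were lower in the RIP in both kinds of cells, against 31.4% of all genes tested, and 6 of 38 were higher in both, against 17.1%. AIMP2, the third scaffold protein, had the widest spread between duplicates, with miR-NC RIP levels of 0.41 and -0.45 (SD 0.61), against 0.07 and 0.09 on the miR-634 RIP arrays.

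**Figure D1:**
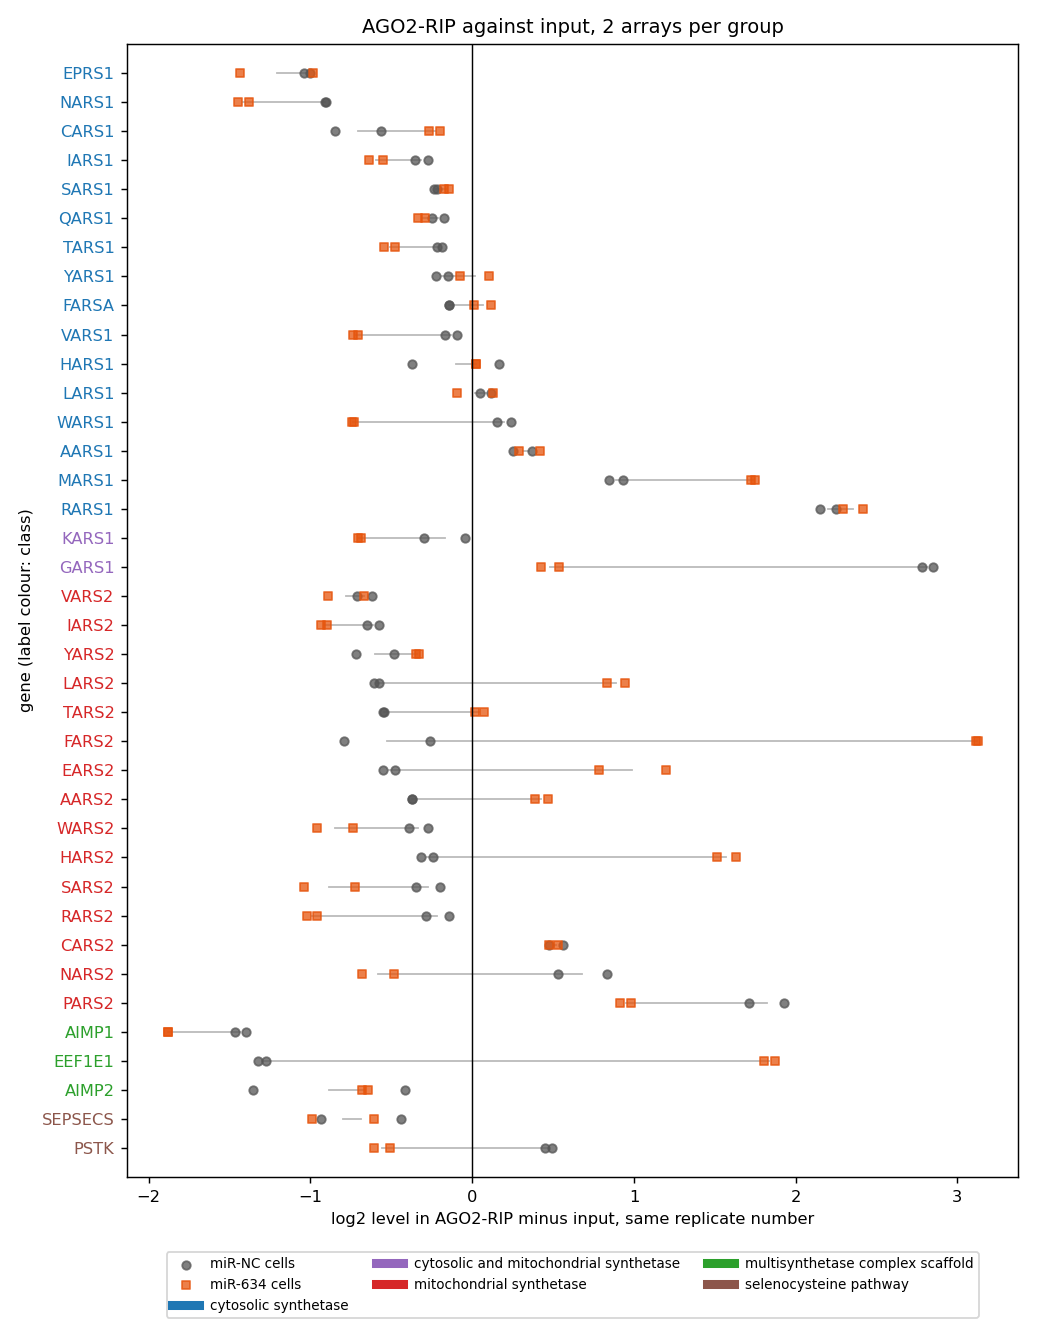
AGO2-RIP level minus input level (log2, horizontal axis) for each of the 38 genes, with RIP and input arrays of the same replicate number subtracted for display only. Gray circles are the miR-NC cells, orange squares are the miR-634 cells, the line joins the means, and label colors give the class. GARS1 (2.81 and 0.48), FARS2 (-0.53 and 3.12) and EEF1E1 (-1.30 and 1.84) have the longest lines, while RARS1 and CARS2 have short ones. SEPSECS is drawn at values not well above background in the RIP.

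In miR-634 cells, 12 members were higher in the RIP than in the input (31.6% of them, against 31.3% of all genes tested) and 19 were lower (50%, against 46.4%). The count of mitochondrial enzymes above their input was 7 of 15, against 3 of 15 in miR-NC cells, and that of cytosolic enzymes was 3 of 16, against 4 of 16. The median enrichment in miR-634 cells was 0.04 for the mitochondrial and -0.20 for the cytosolic enzymes, beside -0.24 over all genes tested. That difference, 0.24, was 0.11 without the miR-634 RIP array of replicate 2, 0.135 without the miR-634 input array of replicate 1, 0.37 without the miR-634 RIP array of replicate 1, 0.15 with the mean of the probes and 0.43 with no filter. The difference in miR-NC cells, -0.21, was -0.075 with normexp and quantile normalization. Scaled on the spike-in probes, 2 members were higher and 33 lower. The RIP level of 6 members was called lower than the input in miR-NC cells and above it in miR-634 cells (6 of 38, against 7.22% of all genes tested), namely AARS2, EARS2, FARS2, HARS2, LARS2 and EEF1E1, of which the first 5 are mitochondrial enzymes. The opposite pattern was found for 3 of 38, against 4.60% of all genes tested, and these were NARS2, WARS1 and PSTK. The pair of opposite calls held in all 19 other settings short of spike-in scaling and the methods' t-test for 7 of these 9 genes, in 7 of 19 for FARS2 and in 15 of 19 for WARS1.

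The change of enrichment between the 2 kinds of cells was called for 24 of the 38 members. Enrichment rose for 9 members (23.7%, against 24.8% of all genes tested) and fell for 15 (39.5%, against 34.7%), so the share of members called was near that of all genes in each direction. The members' median change was -0.08, or 0.09 above the median of all genes tested. The spread was wide, from -2.33 for GARS1 to 3.65 for FARS2, and 5 of the 38 members rose and 3 fell by more than 2-fold, against 13.6% and 9.16% of all genes tested that lay beyond 2-fold. In each of the 9 rises the RIP level itself was called higher, and in 14 of the 15 falls it was called lower, TARS1 being the exception. The RIP level is part of the enrichment, so this agreement is largely built in. Its share over all genes was not counted. For the RIP level taken alone, 13 members rose (34.2%, against 28.0% of all genes tested) and 14 fell (36.8%, against 39.4%). Scaled on the spike-in probes, 26 members were called higher and 1, GARS1, lower, and 13 of the 15 falls had values above 0. That scaling shifts all genes of a comparison alike, so distances from the median gene are the same on both scales.

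The largest rise was that of FARS2, which charges phenylalanine in mitochondria. FARS2 was at -3.11 and -3.04 in the miR-NC input, -3.90 and -3.30 in the miR-NC RIP, -3.34 and -3.30 in the miR-634 input and -0.22 and -0.18 in the miR-634 RIP. The miR-634 RIP arrays stood far above all others, and the miR-NC RIP arrays lay apart from each other and below the miR-NC inputs. The change of enrichment was 3.65 ± 0.26 (adjusted p = 0.000157), a 12.5-fold rise and 3.82 above the median gene. EEF1E1, also called AIMP3, a scaffold protein that is known to move to the nucleus on DNA damage, rose next. It was at -0.26 and -0.23 in the miR-NC input, -1.54 and -1.55 in the miR-NC RIP, -0.46 and -0.46 in the miR-634 input and 1.41 and 1.35 in the miR-634 RIP. The RIP level lay below the input level on the miR-NC arrays and above it on the miR-634 arrays, without overlap, and the change of enrichment was 3.14 ± 0.06 (adjusted p = 6.17e-06), or 8.81-fold. A second probe for another EEF1E1 transcript gave 2.93.

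HARS2, the mitochondrial histidine enzyme, was at -0.96 and -0.92 in the miR-NC input, -1.20 and -1.24 in the miR-NC RIP, -0.86 and -0.93 in the miR-634 input and 0.65 and 0.70 in the miR-634 RIP. Only the miR-634 RIP arrays were above 0, and the change was 1.85 ± 0.07 (adjusted p = 1.9e-05). HARS1, its cytosolic partner, is read from a divergent start, and the promoter windows of the pair share 184 bases on opposite strands. HARS1 had a change of enrichment of 0.12 ± 0.24 (adjusted p = 0.69), which was not called, with miR-NC RIP levels of -0.82 and -0.26.

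EARS2, the mitochondrial glutamate enzyme, was at -2.92 and -2.90 in the miR-NC input, -3.47 and -3.38 in the miR-NC RIP, -3.22 and -3.38 in the miR-634 input and -2.43 and -2.18 in the miR-634 RIP. The change of enrichment was 1.50 ± 0.14 (adjusted p = 0.000417), with the miR-634 RIP arrays above all others. LARS2, which charges leucine in mitochondria, was at -1.80 and -1.83 in the miR-NC input, -2.37 and -2.44 in the miR-NC RIP, -1.97 and -1.94 in the miR-634 input and -1.02 and -1.10 in the miR-634 RIP. Its RIP arrays were the lowest of the 4 groups in miR-NC cells and the highest in miR-634 cells, and the change was 1.48 ± 0.07 (adjusted p = 4.12e-05), or 2.79-fold. LARS2 is among the genes listed by the study. The study's AGO2-enriched transcripts were drawn from these arrays, so this value is not independent evidence of that choice. The study's final list of direct targets kept the AGO2-enriched genes whose protein, measured separately by proteomics, was also lower in miR-634 cells.

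The other rises were those of MARS1 (0.85), the cytosolic methionine enzyme, AARS2 (0.80) and TARS2 (0.59), which charge alanine and threonine in mitochondria, and FARSA (0.21), the catalytic subunit of the cytosolic phenylalanine enzyme. MARS1 was above its input in both kinds of cells and rose further, from 0.89 ± 0.05 to 1.74 ± 0.05, and a second MARS1 probe gave a change of 0.37. FARSA had the smallest rise (adjusted p = 0.0345) and lost its call in 10 of 19 other settings, including when any array other than the miR-634 RIP array of replicate 1 was left out.

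**Figure D2:**
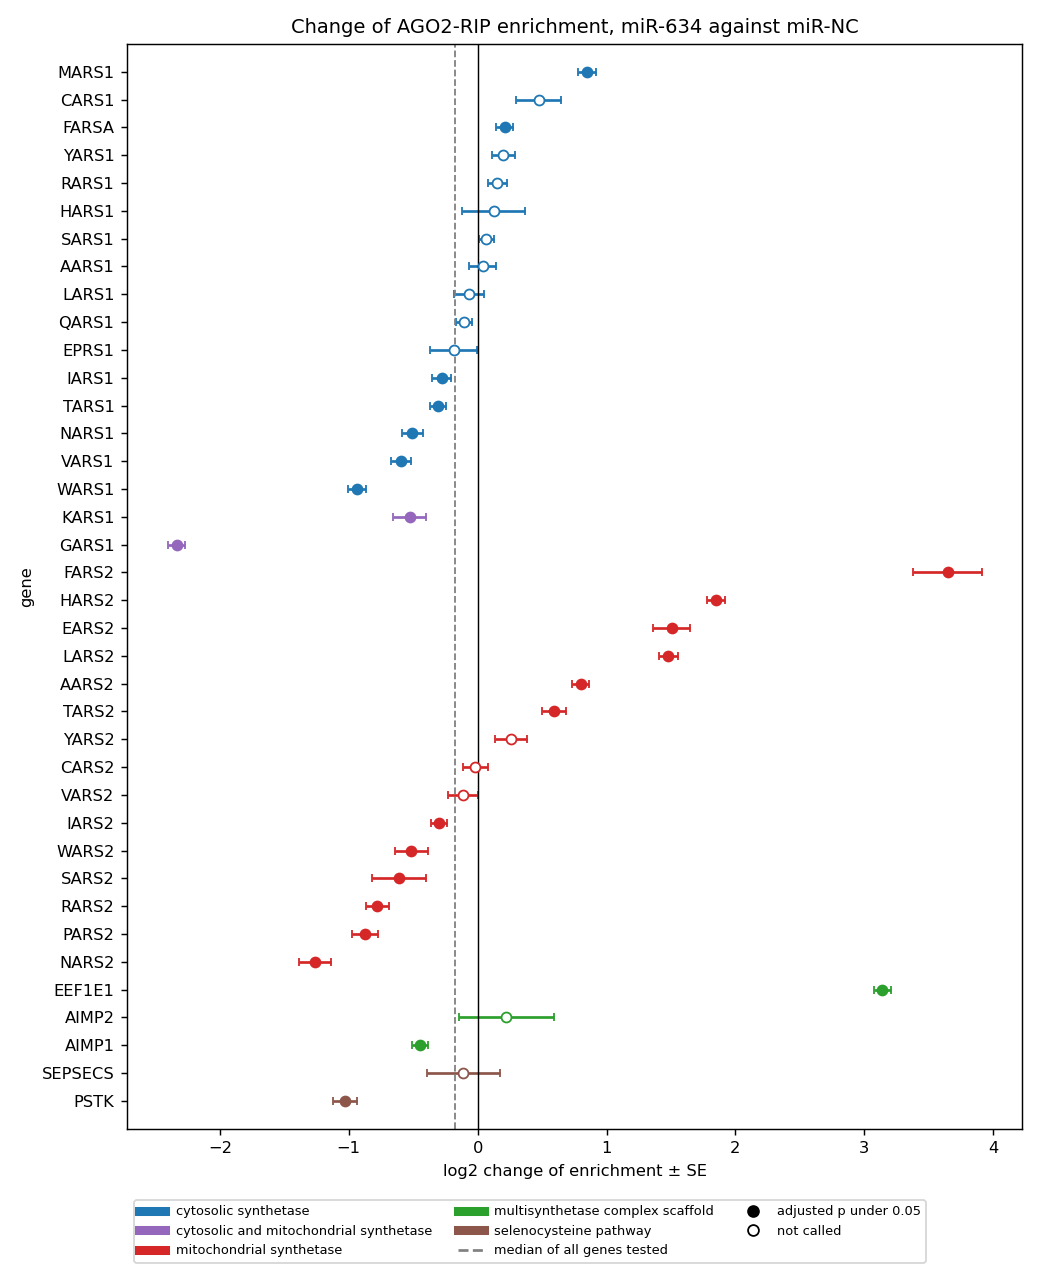
Change of enrichment (log2, miR-634 cells against miR-NC cells, ± SE) for the 38 genes, grouped by class and sorted within it. Filled points have an adjusted p under 0.05 and open points do not, and the dashed line is the median of all genes tested (-0.18). The mitochondrial enzymes (red) run from -1.26 to 3.65 and the cytosolic enzymes (blue) from -0.93 to 0.85, and with spike-in scaling 13 of the 15 filled points left of 0 would lie right of it. SEPSECS, not well above background on the RIP arrays, is drawn at its measured value.

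The largest fall was that of GARS1, the glycine enzyme made for cytosol and mitochondria from the same gene. GARS1 was at -0.80 and -0.75 in the miR-NC input, 2.05 and 2.03 in the miR-NC RIP, -0.33 and -0.38 in the miR-634 input and 0.10 and 0.16 in the miR-634 RIP. The miR-NC RIP arrays stood above all others, and the miR-634 RIP level, though lower, was still above both inputs, so that enrichment went from 2.81 ± 0.05 to 0.48 ± 0.05. The change was -2.33 ± 0.07 (adjusted p = 9.92e-06), and it kept its sign and its call with spike-in scaling (-1.23). KARS1, the lysine enzyme that is likewise shared between the compartments, fell by less, with a change of -0.53 ± 0.13 (adjusted p = 0.0156).

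NARS2, the mitochondrial asparagine enzyme, was at -2.80 and -2.90 in the miR-NC input, -2.27 and -2.07 in the miR-NC RIP, -2.81 and -2.92 in the miR-634 input and -3.49 and -3.40 in the miR-634 RIP. RIP exceeded input on the miR-NC arrays and was below it on the miR-634 arrays, with a change of -1.26 ± 0.13 (adjusted p = 0.000497). PSTK, the kinase that phosphorylates seryl-tRNA on the way to selenocysteine, was at -3.03 and -2.95 in the miR-NC input, -2.58 and -2.46 in the miR-NC RIP, -3.18 and -3.08 in the miR-634 input and -3.69 and -3.68 in the miR-634 RIP. It showed the same order, with a change of -1.03 ± 0.09 (adjusted p = 0.000358), and its other probe gave -0.73. WARS1, the cytosolic tryptophan enzyme that interferon is known to induce, was at 0.23 and 0.16 in the miR-NC input, 0.39 and 0.40 in the miR-NC RIP, 0.43 and 0.48 in the miR-634 input and -0.31 and -0.25 in the miR-634 RIP. Its input level was higher and its RIP level lower in miR-634 cells, and the change was -0.93 ± 0.07 (adjusted p = 0.000202). PARS2, whose levels are given above, fell by 0.87 on the log2 scale (adjusted p = 0.000822).

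The remaining falls were smaller. Among mitochondrial enzymes they were RARS2 -0.78, SARS2 -0.61, WARS2 -0.51 and IARS2 -0.30, which charge arginine, serine, tryptophan and isoleucine. Among cytosolic enzymes they were VARS1 -0.59, NARS1 -0.51, TARS1 -0.31 and IARS1 -0.28, which charge valine, asparagine, threonine and isoleucine. AIMP1 changed by -0.45. Relative to the median gene, the smallest falls were slight, at -0.10 for IARS1, -0.12 for IARS2 and -0.13 for TARS1. IARS1 had 3 probes, which gave changes of -0.28, -0.52 and -0.12, but their enrichments in miR-NC cells disagreed in sign, at -0.32, 0.68 and -0.63. SARS2 had the weakest of these calls (adjusted p = 0.0479), and it was lost in 11 of 19 other settings, including when any input array or miR-NC RIP array was left out. IARS1 lost its call in 5 of the 19 settings, KARS1 and WARS2 in 4, and TARS1 and IARS2 in 2, each with the authors' values and with the percentile over all probes. The calls of IARS1, KARS1 and WARS2 were also lost without the miR-NC input array of replicate 1 or the miR-634 input array of replicate 1, and that of IARS1 without the miR-634 input array of replicate 2.

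For 14 members the change of enrichment was not called. The cytosolic enzymes among them, for cysteine, tyrosine, arginine, histidine, serine, alanine, leucine, glutamine and, in EPRS1, glutamate with proline, were CARS1 0.47, YARS1 0.20, RARS1 0.15, HARS1 0.12, SARS1 0.07, AARS1 0.04, LARS1 -0.06, QARS1 -0.10 and EPRS1 -0.19. The mitochondrial enzymes, for tyrosine, cysteine and valine, were YARS2 0.26, CARS2 -0.02 and VARS2 -0.11. AIMP2 had 0.22. The probe of SEPSECS, which makes selenocysteine on its tRNA, was not well above background on any RIP array, so no change is given for it. Its input level was at least 1.27-fold above the RIP level in miR-634 cells, and no fold can be given for miR-NC cells. Without SEPSECS, the members lower in the RIP numbered 23 in miR-NC cells, 18 in miR-634 cells and 12 in both. SARS1 had a second probe, for a non-coding transcript, with a change of 0.47 where the main probe gave 0.07.

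**Figure D3:**
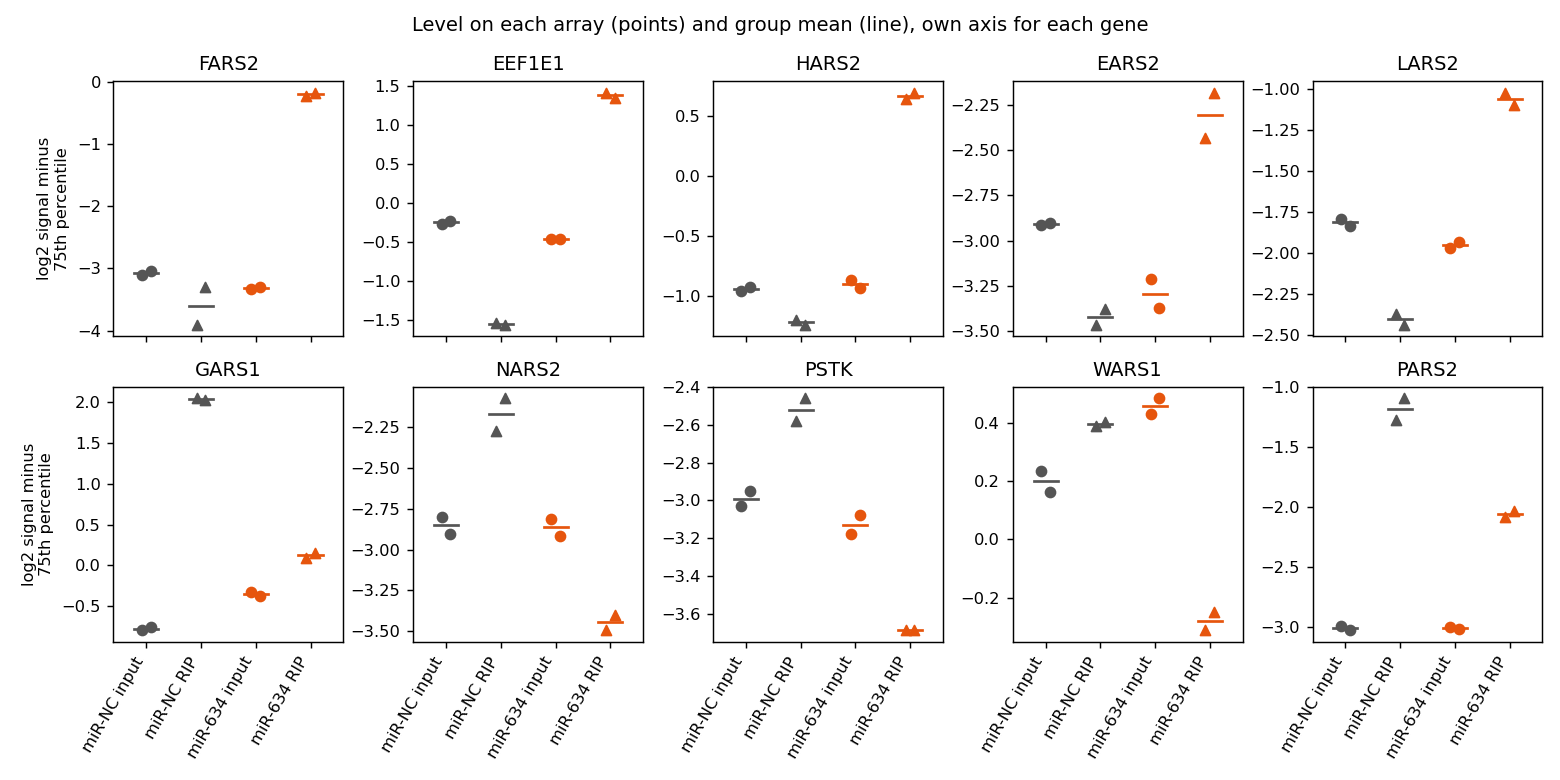
Level on each array (log2 signal minus the array's 75th percentile, vertical axis with its own range for each gene) for the 5 largest rises (top row) and the 5 largest falls (bottom row) of enrichment. Circles are input arrays, triangles are RIP arrays, gray is miR-NC, orange is miR-634, and lines are group means. In the top row the miR-634 RIP arrays are the highest of each panel, and in the bottom row the miR-NC RIP arrays are the highest except for WARS1.

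The cytosolic and the mitochondrial sets were set side by side as a description, and their difference was not tested. The median change of enrichment was -0.01 for the 16 cytosolic and -0.02 for the 15 mitochondrial enzymes, both above the -0.18 of all genes tested. The SD over genes was 0.43 and 1.30, beside 0.95 over all genes tested. Calls were made for 7 of 16 cytosolic enzymes (2 rises, 12.5%, and 5 falls, 31.2%). They were made for 12 of 15 mitochondrial enzymes (6 rises and 6 falls, 40% each). Over all genes tested, 24.8% rose and 34.7% fell. The median of the mitochondrial enzymes minus that of the cytosolic enzymes was -0.005, with 0.004 and 0.02 in the arrays of the 2 replicate numbers, and it ran from -0.06 to 0.13 over the other settings. In 15 pairs of enzymes for the same amino acid, the mitochondrial member had the higher change in 9 pairs. EPRS1, which charges both glutamate and proline in the cytosol, stood in 2 of the pairs. The widest gap was that of phenylalanine, with 0.21 for FARSA and 3.65 for FARS2, followed by histidine (0.12 and 1.85), glutamate (-0.19 and 1.50) and leucine (-0.06 and 1.48). Arginine had the widest gap the other way, with 0.15 for RARS1 and -0.78 for RARS2.

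**Figure D4:**
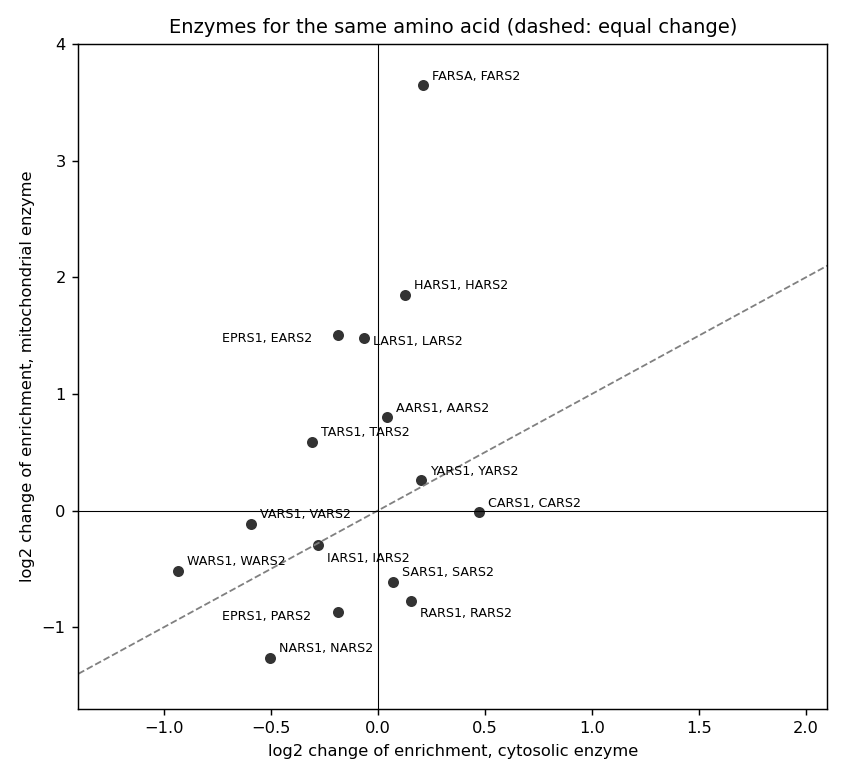
Change of enrichment (log2) of the cytosolic enzyme (horizontal axis) and of the mitochondrial enzyme (vertical axis) for the same amino acid, 1 point for each of 15 pairs. On the dashed line both change equally. Phenylalanine (FARSA, FARS2), histidine, glutamate and leucine lie far above the line.

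The classes of catalytic fold and the complex were compared in the same way. Over all genes tested, 24.8% rose and 34.7% fell in enrichment, with a median of -0.18. Of 17 class I synthetases measured, 3 rose (17.6%) and 6 fell (35.3%), with a median of -0.06. Of 15 class II synthetases, 5 rose (33.3%) and 7 fell (46.7%), with a median of 0.04. EPRS1, which joins an enzyme of each class, was left out of this count. Class II held both extremes, GARS1 and FARS2. Of 7 enzymes of the multisynthetase complex, MARS1 rose, IARS1 and KARS1 fell, and EPRS1, LARS1, QARS1 and RARS1 were not called, with a median of -0.10. The 3 scaffold proteins went 3 ways, with EEF1E1 rising, AIMP1 falling and AIMP2 not called.

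In the input, levels moved far less than in the RIP. The input level was called higher in miR-634 cells for 5 members (13.2%, against 6.56% of all genes tested) and lower for 1 (2.63%, against 7.54%). All 5 rises were of enzymes that act in the cytosol, namely GARS1, which is shared with mitochondria, AARS1, WARS1, TARS1 and SARS1, and the fall was that of EEF1E1. Limma called 0 of the 15 mitochondrial enzymes in either direction. At an unadjusted p under 0.05, limma gave 1 higher and 2 lower among them, and the methods' t-test gave 2 higher and 3 lower. The median input change was 0.16 for the cytosolic enzymes and -0.01 for the mitochondrial enzymes, beside -0.01 over all genes tested. The cytosolic enzymes lay above the median gene in 13 of 16 cases and the mitochondrial enzymes in 7 of 15.

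AARS1, the cytosolic alanine enzyme, was at -1.67 and -1.64 in the miR-NC input, -1.30 and -1.39 in the miR-NC RIP, -1.27 and -1.23 in the miR-634 input and -0.99 and -0.81 in the miR-634 RIP. Its miR-634 input arrays were above its miR-NC input arrays by 0.41 ± 0.07 (adjusted p = 0.0239), and its RIP level rose by about as much, 0.45 ± 0.07 (adjusted p = 0.00281), so that its change of enrichment was 0.04. GARS1 rose in the input by 0.42 ± 0.05 (adjusted p = 0.00698), a 1.34-fold difference, while its RIP level fell by 1.91 on the log2 scale. WARS1 rose in the input by 0.26 ± 0.05 (adjusted p = 0.0297), TARS1 by 0.22 ± 0.05 (adjusted p = 0.0335) and SARS1 by 0.18 ± 0.04 (adjusted p = 0.0436). EEF1E1 changed by -0.21 ± 0.05 (adjusted p = 0.035) in the input, in the opposite direction to its RIP level, which rose by 2.93. Among mitochondrial enzymes the input changes ran from -0.39 for EARS2 (adjusted p = 0.0622) to 0.17 for IARS2 (adjusted p = 0.0666). LARS2 had a value of -0.14 ± 0.05 (adjusted p = 0.15) and FARS2 of -0.24 ± 0.19 (adjusted p = 0.463).

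The median of the mitochondrial minus the median of the cytosolic enzymes was -0.17 in the input, with -0.18 and -0.13 in the arrays of the 2 replicate numbers, and a shift of a whole array leaves this value as it is. In 12 of the 15 amino acid pairs the mitochondrial enzyme had the lower input change, the pairs for isoleucine, proline and arginine being the exceptions. The single-gene calls rested on few arrays. Without the miR-NC input array of replicate 1, or either miR-634 input array, limma called 0 members in either direction, and without the miR-NC input array of replicate 2 it called GARS1 alone, whereas at an unadjusted p under 0.05 the fits without an input array gave 5 to 9 members higher and 1 to 2 lower. The methods' t-test on all arrays at that level gave 12 higher and 4 lower. With spike-in scaling limma called 0, with 0 higher and 2 lower unadjusted.

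**Figure D5:**
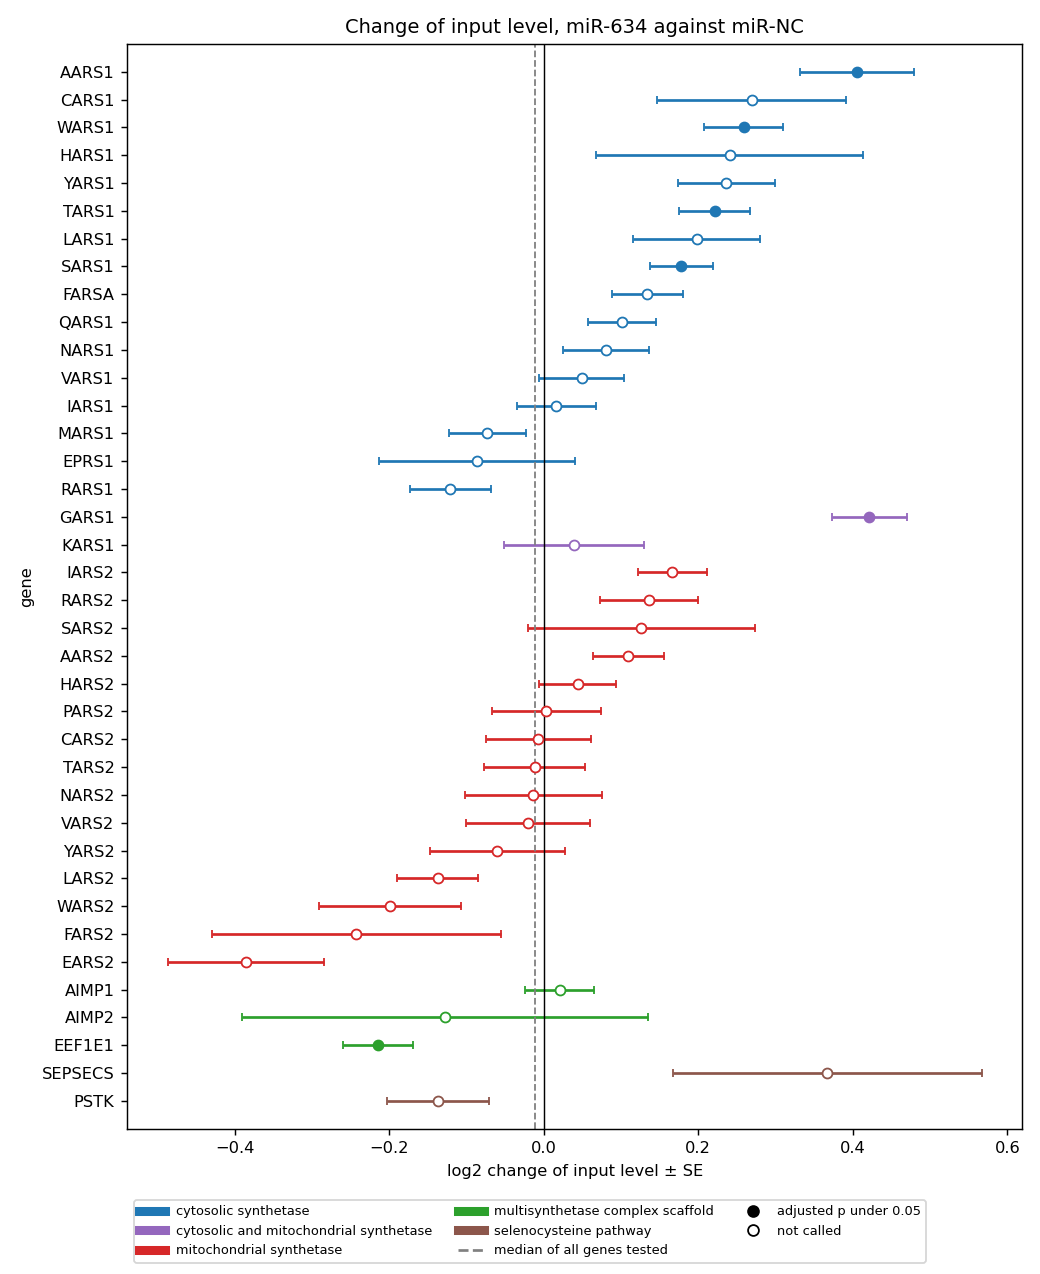
Change of the input level (log2, miR-634 against miR-NC input arrays, ± SE) for the 38 genes, grouped by class and sorted within it, with filled points for an adjusted p under 0.05. Of the cytosolic enzymes (blue), 13 of 16 lie right of the dashed line, the median of all genes tested (-0.01), and of the mitochondrial enzymes (red) 7 of 15 do. No mitochondrial enzyme is filled.

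Promoters of the members were searched for TGATGNAA, the core of the element that ATF4 and C/EBP proteins are known to bind at amino acid response genes. RefSeq promoter windows, from 250 bases before to 50 bases after the start (GRCh38.p14), were available for 32 of the 38 members and were read on both strands. The 8 letters were found in 6 of 13 cytosolic, 1 of 13 mitochondrial (YARS2) and 1 of 2 shared enzymes (GARS1), against 4.46% of all 27305 genes with a window (3.62% of 35116 windows). The narrower form TGATGCAA, whose matches are among these, was in the same 6 cytosolic enzymes, in no mitochondrial enzyme and in 1.08% of all genes (0.866% of windows). Both were chosen for display out of 6 letter strings after the matches had been seen. Of the others, CCGGAAG, the core of ETS family sites, was in 16 of the 32 members and 12.2% of all genes, CACGTG, an E-box, in 4 of 32 and 8.77%, and TGACGTCA, the cyclic AMP response element, in 1 of 32 and 2.25%. The sixth, TGATGNAAN, is the first string with any base after it. The match and its flanks are shown for the 8 members, 5′ to 3′ on the strand of the gene with the 8 letters in capitals, because these are the members whose input levels are set side by side next. Most matches are on the opposite strand and so read as the reverse complement.
AARS1: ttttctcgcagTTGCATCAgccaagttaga
CARS1: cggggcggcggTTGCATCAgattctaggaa
GARS1: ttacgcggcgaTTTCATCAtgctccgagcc
IARS1: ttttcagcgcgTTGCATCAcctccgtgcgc
MARS1: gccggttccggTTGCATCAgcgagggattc
NARS1: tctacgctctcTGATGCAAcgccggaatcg
TARS1: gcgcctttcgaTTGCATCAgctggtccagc
YARS2: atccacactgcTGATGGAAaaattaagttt
These stretches are AARS1 chr16:70289675-70289704 (-), CARS1 chr11:3057407-3057436 (-), GARS1 chr7:30594834-30594863 (+), IARS1 chr9:92293692-92293721 (-), MARS1 chr12:57488053-57488082 (+), NARS1 chr18:57621804-57621833 (-), TARS1 chr5:33440956-33440985 (+) and YARS2 chr12:32756076-32756105 (-). Of the 8 genes, AARS1, GARS1 and TARS1 had a called rise in the input, against 13.2% of the members and 6.56% of all genes tested. These calls rested on few arrays, as described above. CARS1 had 0.27 ± 0.12 (adjusted p = 0.217), and NARS1 0.08, IARS1 0.02, YARS2 -0.06 and MARS1 -0.07 were near 0 or below. Whether a match goes with an input rise was not tested. WARS1 and SARS1 rose in the input and are not among the 8 genes with a match, which can also mean that no window was available. A match describes letters in a window and not binding, and whether any factor bound there was not tested.

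Other genes of the pathway were counted from lists. Of 8 measured genes for other aminoacylation steps and for tRNA editing, 5 fell in enrichment and 0 rose (0 also at an unadjusted p under 0.05, by limma and by the methods' t-test), with a median of -0.32, and the lowest was QRSL1 (-2.45 ± 0.54, adjusted p = 0.0104), a subunit of the mitochondrial glutamyl-tRNA amidotransferase. GATC (-1.28) and GATB (-0.34), the other subunits, fell as well. The methods' test gave 4 lower in this list at an unadjusted p under 0.05, and QRSL1 was not among them. By limma, the RIP level of QRSL1 changed by -1.55 ± 0.38 (adjusted p = 0.0134). Its input level changed by 0.90 ± 0.38 (adjusted p = 0.186), which was not called. Of 7 elongation factors and related genes that handle charged tRNA, 5 rose and 1 fell, with a median of 1.06. EEF1A1, the cytosolic factor that brings charged tRNA to the ribosome, rose by 2.40 ± 0.06 (adjusted p = 8.06e-06). TUFM, its mitochondrial counterpart, changed by -0.69 ± 0.06 (adjusted p = 0.00034), but TSFM, also a mitochondrial factor, rose by 1.30 ± 0.09. The other rises were EEF1D 2.23, EEF1G 1.06 and EEFSEC 0.92, and EEF1B2 (-0.02) was not called. Of 25 tRNA maturation genes 5 rose and 12 fell, with a median of -0.33. The extremes were HSD17B10 at -2.87 and PRORP at 2.41, both subunits of mitochondrial RNase P. The third subunit, TRMT10C, was at -0.37. The shares over all genes tested were 24.8% rising and 34.7% falling.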

How the data were processed

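RIP and input RNA of A431 cells transfected with miR-NC or with miR-634 was profiled on 8 arrays, 2 for each kind of RNA and cell. The authors deposited spot intensity values from Agilent Feature Extraction, background-subtracted within each array and not normalized between arrays. The authors also deposited processed log2 values, which were used here only as an alternative. The deposited background flags, outlier flags and the other per-spot scores were taken as given.

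Control and outlier spots were dropped, repeated spots were averaged, and log2 intensities were shifted by the array's 75th percentile over those probes (16808 of 58201) well above background on each of the 8 arrays. No spot was saturated. Of 33080 probes with a RefSeq accession, 31104 matched a symbol (GRCh38.p14, unversioned). A gene needed a probe well above background on the 4 input arrays, and its brightest probe stood for it. Fits used limma 3.58.1 in R 4.3.3 (lmFit, eBayes, Benjamini-Hochberg, threshold 0.05), with tables and plots from Python 3.11.15, pandas 2.3.3 and matplotlib 3.10.9, and were tested on simulated data. The number of arrays limits the precision.

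The members, lists, motif and rule for named genes were chosen with earlier results of these data known. Per-array levels are given for LARS2, the 5 largest rises and falls of enrichment, the called input changes (up to 3 largest each way), and the 3 highest and lowest enrichments in miR-NC cells, and each other member reported is named. Items of the same gene family that the rule would also take are not reported here, and every count over the members is without them. Probe levels of different genes were not compared. Alternatives were normexp (offset 50, on the median signal) with quantile normalization, quantile normalization alone, spike-in scaling, scaling on the median, the percentile over all probes, the authors' values, a filter on all 8 arrays, no filter, the mean of the probes, the brightest probe over all 8 arrays, an intensity trend, a replicate block, the methods' t-test and each array left out in turn. The arrays shared 1 slide and 1 scan, so no slide block was fitted.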

Additional observations from a re-analysis of the deposited data

Results flagged for a closer look

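For 9 of the 38 genes, against 11.8% of all genes tested, the RIP level was called on opposite sides of the input level in the miR-NC and the miR-634 cells (n = 2 arrays per group). The difference itself was also called by limma as the change of enrichment. That held for every gene tested with such opposite calls, so it is no further support. Lower in the RIP in miR-NC cells and higher in miR-634 cells were FARS2 (change 3.65), EEF1E1 (3.14), HARS2 (1.85), EARS2 (1.50), LARS2 (1.48) and AARS2 (0.80). Higher in miR-NC cells and lower in miR-634 cells were NARS2 (-1.26), PSTK (-1.03) and WARS1 (-0.93). With spike-in scaling, enrichments in miR-634 cells were 1.64 for FARS2, 0.36 for EEF1E1 and 0.09 for HARS2. They were -0.49 for EARS2, -0.59 for LARS2 and -1.06 for AARS2, so for these 3 the side of the input depended on the scale. For FARS2, EEF1E1 and HARS2 the sign held. The miR-NC side of FARS2 was weak, at -0.53 ± 0.19 (limma adjusted p = 0.0473), and its pair of opposite calls held in 7 of 19 other settings. Only 2 of the 38 members were called higher in the RIP in miR-634 cells on that scale, so not all 3 signs went with a call. NARS2, PSTK and WARS1 were below the input in both kinds of cells on that scale.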

How the results depend on the processing

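Spike-in scaling moved the most counts: members higher in the RIP went from 9 to 0 in miR-NC cells and from 12 to 2 in miR-634 cells, members lower in miR-634 cells from 19 to 33, rises of enrichment from 9 to 26 and falls from 15 to 1, rises of the RIP level from 13 to 26 and falls from 14 to 1, and input changes to 0 in each direction. Among the single-gene values followed through all settings, it reversed the change of enrichment of PARS2 (0.23), PSTK (0.075) and WARS1 (0.17). It also reversed the miR-NC enrichment of PARS2 (-0.76) and RARS1 (-0.38). Over all members the reversals were more, since 13 of the 15 falls of enrichment had values above 0. In miR-NC cells 36 members were called lower in the RIP on that scale. Falls of enrichment numbered 9 with the authors' values, with the percentile over all probes and with the methods' t-test after Benjamini-Hochberg, which also gave 9 falls of the RIP level. Input rises, 5 as reported, numbered 2 with the authors' values, the percentile over all probes and the replicate block, 1 with no filter, 12 by the methods' t-test and 1 after its adjustment. Input falls, 1 as reported, numbered 2 with the filter on all 8 arrays and the intensity trend, 4 by the methods' t-test, and 0 with normexp, the authors' values, the percentile over all probes, no filter, the mean of the probes, the replicate block and the methods' t-test after adjustment. The median input change of the mitochondrial minus that of the cytosolic enzymes, -0.17 as reported, was -0.11 with normexp and quantile normalization. The cause was not tested.

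With 1 array left out, input rises ranged from 0 to 5 and input falls from 0 to 2. The replicate block left the falls of enrichment at 15, and apart from the input it moved no count by over 1.5 times. Samples of the same replicate number did not deviate together (r from -0.04 to 0.05 over 13661 genes), so the numbers were not taken as pairs. Apart from spike-in scaling and the methods' t-test, 8 of 9 rises and 9 of 15 falls of enrichment were called in all 19 settings. Fewer spots were well above background on the RIP arrays than on the input arrays, and fewer on the miR-NC RIP arrays than on the miR-634 RIP arrays.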
